A study of Mus musculus with 12 samples.

Results

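The genes examined were those encoding the best known granule proteins of neutrophils, and they were read cell by cell in the livers of mouse embryos and newborn pups. They were chosen by symbol from the deposited gene lists and by the granule in which the protein is stored. Elane, Mpo, Prtn3 and Ctsg stood for the primary granules, Ltf, Camp, Ngp, Lcn2 and Mmp8 for the secondary granules, and Mmp9 for the tertiary granules. These 10 genes, each present as 1 row, were 10 of the 31053 genes listed at stage E16.5, before birth, and of the 22597 genes listed at postnatal day 3 (P3), with 22519 genes listed at both stages.

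Neutrophils make their granules in waves while they mature. Primary (azurophil) granules are filled at the promyelocyte stage, secondary (specific) granules at the myelocyte and metamyelocyte stages, and tertiary (gelatinase) granules in band and segmented cells, and a protein enters the granule that is being built when its messenger RNA is present. Fetal liver is a main site of blood formation before birth, so immature neutrophils of every stage are found in it.

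The samples were whole livers of Jag1+/+, Jag1Ndr/+ and Jag1Ndr/Ndr mice at each stage, profiled with 10x Genomics droplets. The product of Jag1 is a Notch ligand, and Ndr (Nodder) is a missense allele of it, carried in the germ line and therefore in all cells. All animals came from matings between Jag1Ndr/+ parents, homozygous pups were picked by jaundice, and the sex of each sample was not among the labels used here, and the strain labels give only the genotype (written Jag1Ndr/Nd for the homozygotes). TrypLE was added to the digestion at E16.5 only, and the deposited lists and software versions also differed between the stages, so that stage, digestion and counting cannot be told apart. The series names 2 individuals per genotype and stage, but the 12 deposited matrices did not hold 12 separate libraries: 7 pairs of matrices shared 53.4% to 100% of the barcodes of the smaller one, against 0.547% to 1.72% for the other 59 pairs. For E16.5 this left 5: replicate 1 of Jag1+/+, replicate 1 of Jag1Ndr/+, both replicates of Jag1Ndr/Ndr, and a shared library that was deposited under 2 labels, as replicate 2 of Jag1+/+ and of Jag1Ndr/+. At P3, 4 libraries were used. Libraries A and B carry the Jag1+/+ label, but A shared 68.4% and 62.1% of barcodes with the 2 homozygous matrices, and B shared 100% with the second heterozygous and 73.8% with the second homozygous matrix, so their genotype is unclear, library C is Jag1Ndr/Ndr replicate 1 without the barcodes of A, and library D is Jag1Ndr/+ replicate 1.

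The stretches before the start sites of 5 members are printed here because these genes stood at different points of the maturation order described below, and because C/EBP and PU.1 are the transcription factor families best known for driving granule genes. Each is 150 bases of the RefSeq sequence of GRCm38.p6 that ends just before the annotated RefSeq start, read 5′ to 3′ on the plus strand, which is the coding strand of all 5 genes. Capitals mark the letters GAGGAA, a core of PU.1 sites, or TTGCNNAA, a form of the C/EBP site, on either strand. Elane (elastase) and Prtn3 (proteinase 3) are neighbours on chromosome 10, and Elane starts 3073 bases after the last base of Prtn3 in the GENCODE M21 annotation. GENCODE places the start of Elane, Ltf and Ngp inside the stretch printed. It places the start of Prtn3 before the stretch, at base 79874476, so that the Prtn3 stretch lies inside the GENCODE gene.
Elane, chr10:79886162-79886311: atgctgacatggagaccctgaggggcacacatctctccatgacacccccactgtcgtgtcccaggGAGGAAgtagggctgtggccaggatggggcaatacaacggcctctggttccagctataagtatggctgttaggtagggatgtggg
Prtn3, chr10:79879517-79879666: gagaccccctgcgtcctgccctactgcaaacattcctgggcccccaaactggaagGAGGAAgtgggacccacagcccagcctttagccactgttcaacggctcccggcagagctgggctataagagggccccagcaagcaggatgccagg
Ltf, chr9:111019142-111019291: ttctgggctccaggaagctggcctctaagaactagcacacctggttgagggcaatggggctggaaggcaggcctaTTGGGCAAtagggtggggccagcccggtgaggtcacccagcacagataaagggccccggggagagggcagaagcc
Ngp, chr9:110419658-110419807: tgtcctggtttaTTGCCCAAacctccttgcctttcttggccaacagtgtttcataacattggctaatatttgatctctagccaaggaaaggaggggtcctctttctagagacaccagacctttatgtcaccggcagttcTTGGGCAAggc
Mmp8, chr9:7558279-7558428: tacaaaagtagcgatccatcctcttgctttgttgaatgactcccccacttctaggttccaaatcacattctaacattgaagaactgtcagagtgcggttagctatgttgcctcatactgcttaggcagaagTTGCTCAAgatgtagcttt
In the 250 bases before the start, 9 members were found in the promoter table. TTGCNNAA was present in 0 of 4 primary and 4 of 5 secondary members (Ltf, Ngp, Lcn2 and Mmp8), and in 9.56% of all 32851 promoters searched. GAGGAA was present in 4 of 4 primary and 3 of 5 secondary members, and in 23.3% of all promoters. CAACNG, a core of MYB sites, was present in 3 primary and 2 secondary members, and in 29.3% of all promoters. All 3 motifs were searched on both strands, and a CAACNG and a TTGCNNAA of Lcn2 shared letters. A match describes these letters only and is no evidence of binding.

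After filtering, 102039 cells were kept at E16.5 (16521 to 26131 per library) and 64006 at P3 (13522 to 19354). Median counts of unique molecular identifiers (UMIs) per passing barcode were 5325 to 9256 and 2961 to 6235. Neutrophil-like clusters, which were built and named without the 10 genes, held 9191 cells at E16.5 (1388 to 2358 per library, 7.60% to 11.9% of the cells left after doublet-rich clusters were removed) and 9449 at P3 (1425 to 3377, 9.86% to 18.9%). All 25 markers of the neutrophil list were counted in these cells at E16.5, with a summed level of 174669 to 204520 CPM, which is the UMI count scaled to a common total of UMIs in the same cells. UMIs of globin genes made up 11.8% to 23.8% of the UMIs of neutrophil-like cells at E16.5 and 0.441% to 0.811% at P3, and 17.8% to 31.0% against 0.400% to 0.786% in B-like cells. Their part in the stage differences given below was tested only by leaving the globin genes out, which changed no count of members called in neutrophil-like cells or their ranges.

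Along neutrophil maturation the primary set had the earliest mean position, the secondary set a later one and the tertiary gene Mmp9 one later still, in all 9 libraries. This is an order of set means, and Mmp8, a secondary gene, came after Mmp9. Cells were ranked within each library by genes of late neutrophils minus genes of early ones, none of them a member. The ranked cells were divided into 10 bins of equal cell number, and the position of a gene was the mean of the bin centres weighted by CPM. On this scale 0% is the most immature and 100% the most mature cell, and bin centres reach neither end. The values of genes near an end therefore depend on the number of bins. With 5 bins the mean position of Ctsg was 10.98%, against 8.41% with 10. The mean position was 10.3% ± 1.74 (SD, n = 9 libraries) for the primary, 63.1% ± 2.54 for the secondary and 80.0% ± 1.90 for the tertiary set. The secondary set lay 52.8 ± 1.66 percentage points after the primary set, and the tertiary member 16.9 ± 1.27 points after the secondary set. Both differences had the same sign in 9 of 9 libraries (two-sided exact sign-flip permutation test, p = 0.00391, the smallest that 9 libraries can give). The axis was itself built from genes of early and late neutrophils, and the order of the granule sets was known beforehand. This p-value therefore only describes how steady the differences were over libraries and is no independent test of the order.

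**Figure D1:**
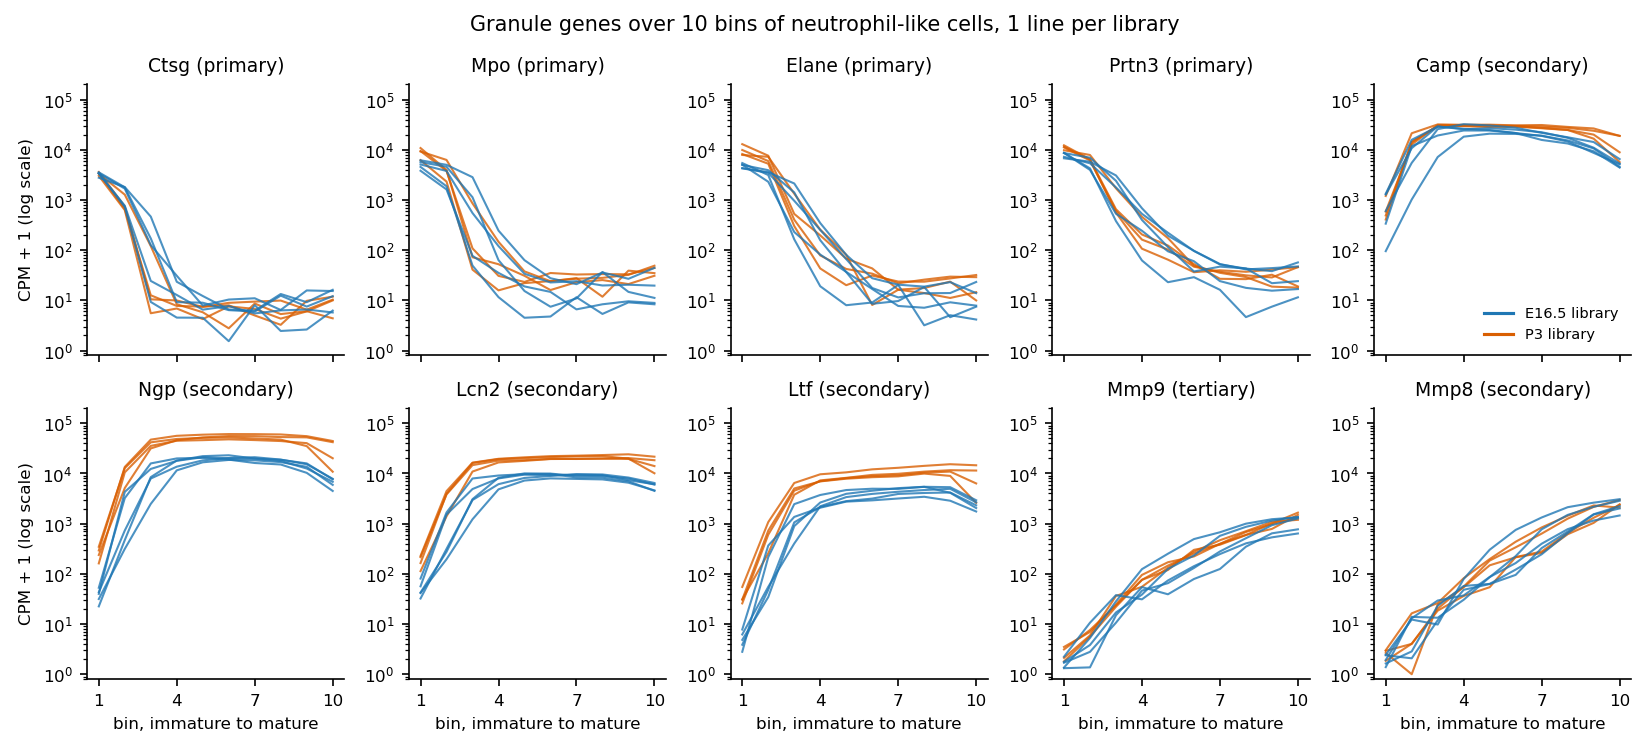
Level of each granule gene in 10 bins of neutrophil-like cells from immature (bin 1) to mature (bin 10); the vertical axis is CPM + 1 on a log scale, and each line is 1 library (5 at E16.5 in blue, 4 at P3 in orange). The 4 primary genes are highest in bin 1, Camp, Ngp, Lcn2 and Ltf form a plateau in between, and Mmp9 and Mmp8 climb towards bin 10.

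Among the primary genes, Ctsg came first. It encodes cathepsin G, a serine protease, and its position was 9.45, 11.2, 7.49, 7.12 and 9.61% at E16.5 (wild-type replicate 1 first, then the shared library, heterozygous replicate 1 and homozygous replicates 1 and 2, an order kept for all values below) and 7.47, 7.38, 7.38 and 8.59% in P3 libraries A to D. Mpo, the myeloperoxidase that makes hypochlorous acid, followed at 11.6, 13.8, 8.99, 8.46 and 11.3% at E16.5 and at 8.999, 9.19, 8.44 and 10.7% at P3. The stages overlapped for both genes, and the shared E16.5 library had the latest position for each. A position counts the ranked cells of its own library, so it can shift with the make-up of that library. The shared library also had the largest share of early cells at E16.5, 28.4% against 18.4% to 25.8%. The part of make-up in the positions was not tested.

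Elane, which encodes neutrophil elastase, lay at 11.05% ± 1.78 on average, and Prtn3, its neighbour encoding proteinase 3, at 11.4% ± 1.98. The steps were small against the spread between libraries, but they were counted within libraries. The neighbour pairs and their direction were taken from the mean positions in these same libraries. The p-values of neighbour steps, here and below, therefore only describe how steady each step was and are no independent test of the order. Mpo lay 1.75 ± 0.468 points after Ctsg and Elane 0.884 ± 0.323 points after Mpo, in 9 of 9 libraries each (exact sign-flip permutation test, p adjusted over 9 neighbour pairs = 0.00439). Prtn3 lay 0.385 ± 0.318 points after Elane in 8 of 9 libraries (adjusted exact p = 0.0117). The exception was homozygous replicate 1 at E16.5, with Elane at 9.29% and Prtn3 at 9.24%. All 4 genes had their highest level in bin 1 in every library.

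The fall of the primary genes was steep. The mean level of Ctsg at E16.5 was 3306 ± 306 CPM in bin 1 (SD, n = 5), 1354 ± 557 in bin 2, 159 ± 185 in bin 3 and 7.02 ± 2.88 in bin 5. At P3 it was 3338 ± 241 CPM in bin 1 (n = 4), 826 ± 303 in bin 2, 36.3 ± 55.7 in bin 3 and 5.24 ± 1.56 in bin 5. Levels in bin 5 were thus close to those in B-like cells, which should lack the gene (8.63 ± 4.65 and 6.71 ± 1.62 CPM). Prtn3 kept a longer tail, with 383 ± 242 CPM in bin 4 and 129 ± 80.0 in bin 5 at E16.5.

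The secondary genes were spread over the axis. Camp, which encodes the cathelicidin precursor of the antimicrobial peptide CRAMP, was the earliest, at 51.1, 56.4, 49.3, 46.0 and 49.1% at E16.5 and 50.3, 50.8, 54.6 and 55.1% at P3. Ngp, neutrophilic granule protein, a cystatin-related protein, followed at 57.6% ± 3.02, Lcn2, the siderophore-binding lipocalin, at 60.2% ± 2.51, and Ltf, the iron-binding lactoferrin, at 63.3% ± 2.57. Prtn3 and Camp were separated by 40.0 ± 2.93 points, the widest gap in the order. The steps from Camp to Ngp (6.22 ± 2.31), from Ngp to Lcn2 (2.58 ± 0.770) and from Lcn2 to Ltf (3.09 ± 1.02) each had the same sign in 9 of 9 libraries (exact sign-flip permutation test, adjusted p = 0.00439). Single libraries peaked in bins 3 to 5 for Camp, 5 to 7 for Ngp, 5 to 9 for Lcn2 and 8 to 9 for Ltf.

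Mmp9 and Mmp8 were the last. Mmp9 encodes gelatinase B, the marker enzyme of tertiary granules, and its position was 80.1, 82.7, 78.3, 76.6 and 82.3% at E16.5 and 79.8, 79.1, 81.1 and 80.0% at P3. Mmp8 encodes the neutrophil collagenase, by protein a content of secondary granules, but its RNA was placed at 83.0, 85.1, 81.6, 79.5 and 84.7% at E16.5 and at 82.7, 79.9, 85.0 and 84.3% at P3. Mmp8 therefore lay after the tertiary gene, by 2.88 ± 1.01 points in 9 of 9 libraries (exact sign-flip permutation test, adjusted p = 0.00439). Mmp9 lay 16.7 ± 1.54 points after Ltf.

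**Figure D2:**
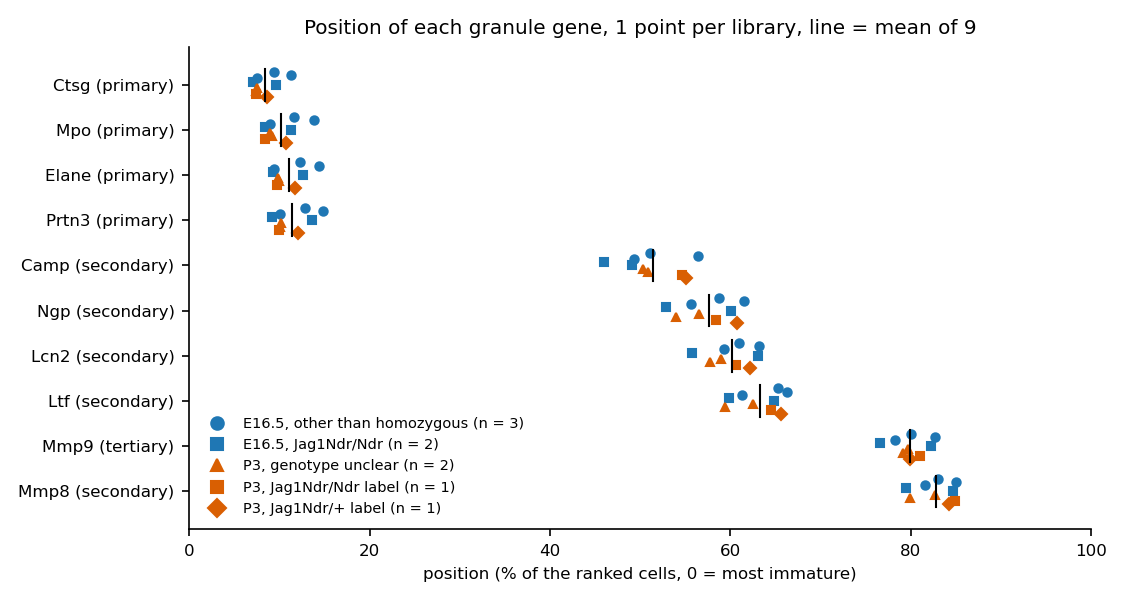
Position of each granule gene along neutrophil maturation in percent of the ranked cells (0 is the most immature end), with 1 point per library and a bar at the mean of 9. Primary genes lie between 7.12% and 14.9%, Camp to Ltf between 46.0% and 66.2%, and Mmp9 and Mmp8 between 76.6% and 85.1%.

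The rise of both metalloproteinase genes was gradual. At E16.5, Mmp8 went from 0.954 ± 0.460 CPM in bin 1 to 49.4 ± 19.0 in bin 4, 613 ± 447 in bin 7 and 2327 ± 653 in bin 10. Mmp9 went from 0.674 ± 0.369 through 57.9 ± 37.5 and 379 ± 232 to 1075 ± 344 in the same bins. Neither had turned down by the last bin on average. The depth of the cells moved with the axis, since the median number of UMIs per cell, averaged over libraries, fell from 15923 in bin 1 to 6844 in bin 10 before birth, and at P3 it fell from 13481 to 2694. With each cell thinned to 1000 UMIs, the order of the 10 genes was the same, and the position that moved most, that of Mmp9, went from 80.0% to 78.2%.

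The levels were also compared between sub-clusters, which were grouped into early, middle and late ranges by separate marker lists. At E16.5 the early, middle and late ranges held 2133, 3372 and 1672 cells, and at P3 2024, 5808 and 1485. The libraries differed in make-up: 43.6% of the neutrophil-like cells of Jag1Ndr/+ replicate 1 at E16.5 lay in sub-clusters of no range, and 37.3% of those of homozygous replicate 1 at that stage were late, against 9.78% to 18.5% in the other E16.5 libraries. Early cells had 42.7 to 98.4 times the CPM of middle cells for Elane over the 9 libraries, 77.5 to 247 times for Mpo, 33.4 to 58.9 times for Prtn3 and 149 to 593 times for Ctsg. With cells thinned to 1000 UMIs, Ctsg was counted in 0.819% (E16.5) and 0.772% (P3) of middle cells, against 0.913% and 0.835% of B-like cells. Mpo was counted in 2.37% and 3.41%, against 2.04% and 3.19%. Elane and Prtn3 were counted more often in middle than in B-like cells at each stage. Middle cells thus held Ctsg and Mpo about as often as B-like cells, which should lack them, and the size of their ratios is uncertain.

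Camp was already present in early cells, at 8828, 2927, 7134, 8416 and 11789 CPM at E16.5 and 13443, 5522, 7467 and 11626 CPM at P3. The shared library was the lowest, and the stages overlapped. In bin 1, with 99.9% and 99.8% early cells on average, Camp was at 729 ± 557 CPM at E16.5 and 671 ± 360 CPM at P3. In bin 2, with 86.9% and 83.4% early cells, it was at 8987 ± 5783 and 15650 ± 3886 CPM. The level of Camp in early cells thus depends on where that range ends. In middle cells Camp was at 28798, 19333, 28281, 29241 and 24127 CPM at E16.5 and at 29119, 28138, 29174 and 30451 CPM at P3. Late cells had 0.237 to 0.628 times the middle level, below it in 9 of 9 libraries. Ngp was likewise lower in late than in middle cells in 9 of 9 libraries and Lcn2 in 7 of 9. Ltf was lower in 3 and higher in 6, with ratios from 0.642 to 1.30. Late cells had 4.79 to 8.82 times the middle level of Mmp8 and 3.73 to 7.27 times that of Mmp9, above it in 9 of 9 libraries.

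**Figure D3:**
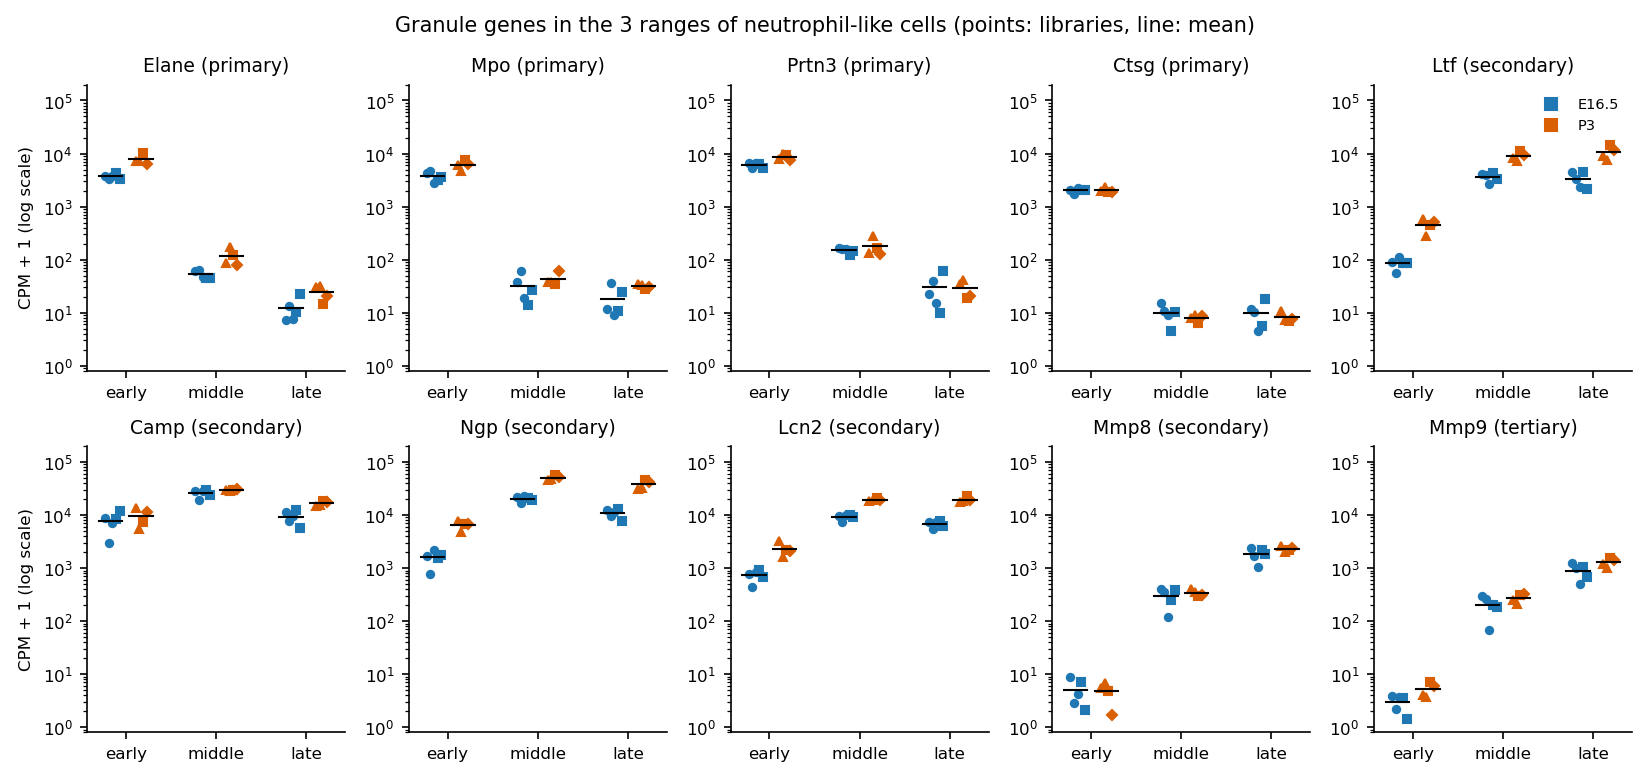
Level of each granule gene (CPM + 1, log scale) in the early, middle and late ranges of neutrophil-like cells, with 1 point per library and a line at the mean of each stage (E16.5, n = 5, blue; P3, n = 4, orange). Primary genes drop from early to middle cells, Camp and Ngp are highest in middle cells, and Mmp8 and Mmp9 are highest in late cells.

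Single cells carried RNA for primary and secondary granules at the same time most often in the early range. A secondary UMI here is one of Ltf, Camp, Ngp or Lcn2, since Mmp8 was counted together with Mmp9. With every cell thinned to 1000 UMIs, which left out no cell, 50.05% ± 6.78 of early cells at E16.5 (n = 5 libraries) and 64.5% ± 1.18 at P3 (n = 4) had at least 1 UMI of both a primary and a secondary member. In middle cells the share was 12.8% ± 2.72 and 13.1% ± 1.25. All middle cells had a secondary UMI, so this is their share with a primary UMI, which was 6.39% ± 3.60 and 9.89% ± 3.34 in B-like cells. The share with both in late cells was 7.14% ± 4.603 and 9.08% ± 0.970. In B-like cells, which should lack all these genes, the share with both was 1.42% ± 1.11 and 4.04% ± 1.79. Of early cells, 98.2% ± 0.711 and 94.6% ± 2.68 had a primary UMI, so that the share with both follows that with a secondary UMI, which was 51.8% ± 6.77 and 69.99% ± 3.15. A secondary UMI was also found in 14.5% ± 5.59 and 37.6% ± 6.61 of B-like cells, and how many of the early cells counted as holding both owe it to free RNA was not tested. How far the share in early cells depends on where the early range ends was not tested either. Without thinning, the shares with both were 87.4% and 97.9% in early, 52.7% and 41.7% in middle, 33.1% and 24.8% in late and 21.2% and 24.1% in B-like cells. Median depths per library were 13099 to 18647 and 7490 to 17062 UMIs in early cells and 9461 to 14338 and 3477 to 8125 in middle cells. They were 6223 to 8306 and 2055 to 4133 in late cells and 5908 to 8129 and 1717 to 4271 in B-like cells.

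Several secondary genes were counted in early cells. After thinning, Camp was counted in 47.6% ± 8.998 of early cells at E16.5 and 58.6% ± 6.51 at P3, against 8.27% ± 3.86 and 13.1% ± 2.87 of B-like cells. Ngp was counted in 26.8% ± 3.79 and 50.1% ± 1.83 of early cells, against 4.52% ± 1.64 and 17.5% ± 3.51 of B-like cells. Lcn2 was counted in 25.4% ± 3.702 and 46.1% ± 5.23, against 2.23% ± 0.828 and 10.4% ± 2.83. Ltf was counted in 4.77% ± 1.32 and 18.9% ± 3.48, and Mmp8 in 0.336% ± 0.262 and 0.358% ± 0.107. The share for Mmp8 was close to that in B-like cells (0.161% ± 0.033 and 0.302% ± 0.110). Late cells with Mmp8 or Mmp9 and a primary gene made up 6.03% ± 4.1 and 8.38% ± 0.468, and late cells with any primary gene 7.38% ± 4.57 and 9.51% ± 1.34, against 6.39% ± 3.60 and 9.89% ± 3.34 of B-like cells. The share of late cells with a primary gene was thus close to that of B-like cells.

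Genes that ran alongside each set were named by a rule, as those with the highest mean Pearson correlation over the 10 bins with the set, of 3111 genes compared in 9 libraries. The bins of a library share its depth and its cells, so the values are a description. For the primary set these were Nkg7, a granule membrane protein gene that is itself in the early list (mean r = 0.995), the ribosomal protein genes Rps27a (0.992) and Rpl30 (0.990), Ssr4 of the translocon-associated complex (0.991), and the lectin gene Mgl2 (0.990). For the secondary set they were Adpgk, an ADP-dependent glucokinase gene (0.996), Wfdc21 (0.994), the stefin gene Stfa3 (0.994), the actin-severing gelsolin gene Gsn (0.994) and the integrin gene Itgb2l (0.992). For Mmp9 they were the thrombospondin gene Thbs1 (0.992), Slfn4 (0.986), the arginine deiminase gene Padi4 (0.985), Asprv1 (0.985) and the T-cell receptor complex gene Cd3d (0.984). Adpgk was in the list used to name middle cells and Wfdc21 in that for neutrophils.

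The members differed in how much of their RNA was counted outside neutrophil-like cells. Neutrophil-like cells held 64.9% of all Mpo UMIs of kept cells at E16.5 (59.3% to 69.3% over libraries) and 64.8% at P3 (59.3% to 71.1%). For Ctsg the shares were 78.1% and 69.2%, for Prtn3 79.7% and 73.1%, and for Elane 88.0% and 83.9%. For the secondary and tertiary members they were 90.4% to 97.6% on average at either stage. The lowest of these was Mmp8, with 92.4% and 90.4%, and monocyte-like cells held 4.77% and 6.89% of its UMIs, beside 4.84% and 7.998% of those of Elane. The levels in other classes are given beside those in B-like cells, since free RNA from lysed cells gives all droplets some UMIs.

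At E16.5 the mean level of Mpo was 1831 ± 553 CPM in the stem and progenitor-like class, 1624 ± 464 in the basophil and mast-like class, 1231.5 ± 457 in neutrophil-like cells and 544 ± 185 in monocyte-like cells. The first 3 classes overlapped, and monocyte-like cells overlapped neutrophil-like cells in range (352 to 805 against 652 to 1794 CPM). Ctsg stood at 641 ± 94.1 in neutrophil-like, 543 ± 86.4 in basophil and mast-like, 439 ± 111 in stem and progenitor-like and 91.0 ± 13.8 in monocyte-like cells, and the first 3 overlapped again. Elane was lower outside neutrophil-like cells (1194 ± 193), at 196 ± 47.5 in monocyte-like, 130 ± 46.1 in stem and progenitor-like and 41.1 ± 24.7 in the basophil and mast-like class. The background in B-like cells was 10.2 ± 6.56 CPM for Elane and 8.63 ± 4.65 for Ctsg. Prtn3 followed the order of neutrophil-like (1983 ± 323), stem and progenitor-like (945 ± 263), monocyte-like (585 ± 94.4) and basophil and mast-like cells (281 ± 75.8).

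At P3, stem and progenitor-like cells (14 to 43 per library) had 3934 ± 1035 CPM of Mpo and 3043 ± 209 of Prtn3. An eosinophil-like cluster of 6 to 25 cells per library had 4974 ± 1854 CPM of Mpo, 3469.6 ± 1996 of Elane and 5227 ± 2399 of Prtn3. These classes are small, and they held few of all the UMIs. Megakaryocyte-like cells held 16.7% of the Mpo UMIs of kept cells and 16.7% of those of Ctsg at P3, against 10.9% and 7.31% in monocyte-like cells and 2.33% and 1.81% in stem and progenitor-like cells. That cluster also held basophil and progenitor genes at P3, with Prss34 at 649 ± 390 CPM and Cd34 at 122 ± 9.91 CPM, so its share cannot be assigned to megakaryocytes alone. Basophil and mast-like cells, 7 to 12 per library, had 1096 ± 339 CPM of Ctsg but 19.7 ± 14.2 of Elane, the latter at the level of B-like cells (21.9 ± 6.90).

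Of the later members, Mmp8 and Lcn2 had a level above background in monocyte-like cells. Mmp8 was at 75.0, 58.4, 75.5, 83.5 and 58.7 CPM at E16.5 and at 149.6, 139, 54.5 and 60.5 CPM at P3, while B-like cells had 1.45 ± 0.53 and 2.22 ± 0.62 CPM. After thinning, 6.88% ± 1.05 and 10.8% ± 4.72 of monocyte-like cells had an Mmp8 UMI. Lcn2 was at 294 ± 138 CPM in monocyte-like cells at P3 against 89.6 ± 20.3 in B-like cells. In mesenchymal-like cells at P3 (15 to 68 per library), Camp, Ngp, Lcn2 and Ltf were counted at 2647 ± 802, 3346 ± 522, 1605 ± 220 and 561 ± 203 CPM. Per UMI of Ngp there were 0.791 UMIs of Camp, 0.480 of Lcn2 and 0.168 of Ltf in these cells, against 0.637, 0.391 and 0.177 in neutrophil-like cells. The other members were at lower ratios there, with 0.0102 UMIs of Elane, 0.0099 of Mpo, 0.0104 of Prtn3 and 0.004 of Mmp8 against 0.0921, 0.0733, 0.1035 and 0.0105. The part of neutrophil RNA in these droplets was not tested.

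**Figure D4:**
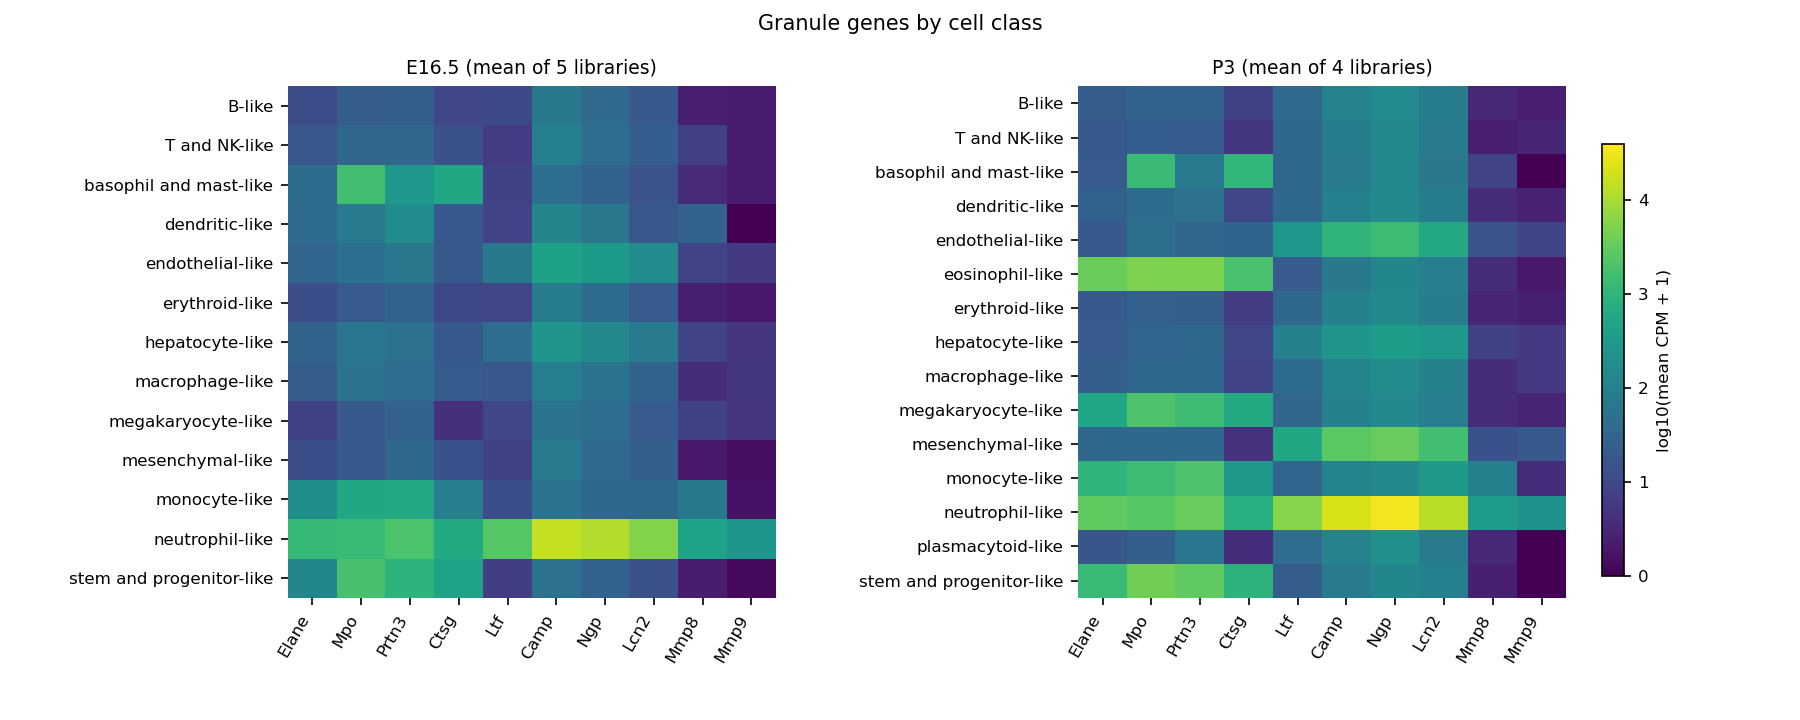
Mean level of the 10 granule genes in each cell class at E16.5 (5 libraries) and P3 (4 libraries), coloured by log10 of mean CPM + 1. Primary genes are bright in several myeloid and progenitor classes, while Ltf to Mmp9 are brightest in neutrophil-like cells.

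The comparison of Jag1Ndr/Ndr livers with the others asked whether the Jag1 genotype goes with the expression of these genes, and it gave no call. At E16.5, the 2 homozygous libraries were set against the 3 others, because 1 library carries both other labels. Elane in neutrophil-like cells was at 1397, 1298 and 890.2 CPM in the 3 others and at 1245 and 1142 CPM in the homozygous libraries. Mpo was at 1537, 1794 and 652 CPM against 929.9 and 1245 CPM. For these genes the values of the homozygous pair fell between those of the others, and Jag1Ndr/+ replicate 1 was the lowest.

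The member with the largest estimate was Mmp8, at 544, 356 and 360.3 CPM in the 3 others and 715 and 350.3 CPM in the homozygous libraries. Homozygous replicate 1, the library with the most late cells, was the highest and replicate 2 the lowest, so the groups overlapped. The log2 fold change of Mmp8 was 0.41 ± 0.34 (SE) and that of Mpo -0.18 ± 0.29, the ends of the range of all 10 members. Without homozygous replicate 1 the value of Mmp8 was -0.29, and without replicate 2 it was 0.87. With edgeR's quasi-likelihood test, adjusted over all pairs of class and gene, every member had an adjusted p of 1.00. None of the 10 members was called (0.0% of the 12162 genes tested in neutrophil-like cells were), and none had an unadjusted p under 0.05. The median log2 fold change was 0.09 over the members and -0.00 over all genes. An unadjusted p under 0.05 was found for 153 of all genes in neutrophil-like cells, and with DESeq2 the call count was 1, which was not a member.

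Within the early, middle and late ranges, again none of the 10 members was called (0.0% of 28592 pairs of range and gene, with 500 at an unadjusted p under 0.05 and 0 called by DESeq2). Among the members, Elane in late cells (0.82) and Mpo in middle cells (-0.85) had an unadjusted p under 0.05, and an adjusted p of 1.00 in edgeR. In 10 other classes with enough cells, 0 members were called as well (over all classes 0.0% of 114556 pairs were). An unadjusted p under 0.05 was found for 3 of 7 members tested in megakaryocyte-like cells (203 of 8293 genes), 2 of 8 in basophil and mast-like cells (175 of 8670 genes) and 1 of 10 in hepatocyte-like cells (245 of 11590 genes). In megakaryocyte-like cells Ngp was at 60.7 ± 35.7 CPM in the others and 22.5 ± 1.19 in homozygous libraries, a log2 fold change of -1.29. In the same cells Lcn2 was at 26.3 ± 12.5 and 11.1 ± 2.05 CPM (-1.08) and Mpo at 25.9 ± 27.8 and 7.26 ± 3.45 CPM (-1.67). In basophil and mast-like cells Elane was at 55.3 ± 21.2 CPM in the others and 19.7 ± 4.15 in homozygous libraries (-1.53), and Prtn3 had a log2 fold change of -0.57. In hepatocyte-like cells Elane had one of 0.85. All 6 had an adjusted p of 1.00 in edgeR. With 2 libraries against 3, these values bound no small difference.

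The stages differed. In neutrophil-like cells 6 of the 10 members were called higher at P3 than at E16.5, 0 lower, and 4 were not called. Of all 11339 genes tested in these cells, 25.5% were called higher and 25% lower (50.5% in either direction), so that calls as such were common. The median log2 fold change was 0.71 over the members and 0.02 over all genes. At E16.5, 3.42% to 4.55% of the UMIs of neutrophil-like cells came from the 10 members, and at P3 7.56% to 9.32%.

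Among the primary genes, Elane stood at 2933, 2707, 3616 and 2759 CPM in P3 libraries A to D, all above the E16.5 values. Its log2 fold change was 1.17 ± 0.15 (edgeR, adjusted p = 5.54e-05). Prtn3 was at 3235, 3641, 3342 and 3289 CPM at P3 and at 2459, 2066, 1566, 1898 and 1926 CPM at E16.5, without overlap, and its log2 fold change was 0.60 ± 0.13 (edgeR, adjusted p = 0.00230). Mpo was at 2437, 1735, 2601 and 2790.3 CPM at P3, and library B lay below the highest E16.5 library, the shared one. Its log2 fold change was 0.83 ± 0.21 (edgeR, adjusted p = 0.00526).

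Ctsg did not follow the other primary genes past the test. It was at 807, 834, 649.8 and 825 CPM at P3 and at 752, 648, 507, 599 and 698 CPM at E16.5, with a log2 fold change of 0.10 ± 0.13 (edgeR, adjusted p = 0.529). The stages overlapped, with library C inside the E16.5 range.

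Among the secondary genes, Ngp was at 28836, 30112, 39121 and 32442 CPM at P3 and at 12309, 9706, 13194, 11981 and 11723 CPM at E16.5. The log2 fold change of Ngp was 1.26 ± 0.19 (edgeR, adjusted p = 1.62e-04), the highest of the 10 members. Ltf was at 5141, 4661, 7684 and 5612 CPM at P3 against 2663, 2367, 2029.7, 2923 and 2171 CPM (1.07 ± 0.19, edgeR adjusted p = 5.45e-04). Library C was the highest for both genes, and neither overlapped between stages. Lcn2 was at 12205, 12563, 14609 and 11662 CPM at P3 and at 5682, 4388, 6415, 6186 and 5595 CPM at E16.5, likewise without overlap (0.97 ± 0.20, edgeR adjusted p = 0.00161).

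Camp was not called. Its CPM values were 21659.9, 18689, 21037 and 21774 at P3 and 17819, 11332, 14845, 16523 and 17147 at E16.5, without overlap. With globin UMIs left out of the total, Camp was at 21793, 18772, 21166 and 21952 CPM at P3 and at 20449, 12842, 19486, 19961 and 20207 CPM at E16.5, so that library B lay below 4 of the 5 E16.5 libraries and the stages overlapped. After scaling between libraries by TMM, the log2 fold change was 0.22 ± 0.19 (edgeR, adjusted p = 0.343). Scaling by library size alone, which moved the median of all genes from 0.02 to 0.18, gave 0.41 and an adjusted p of 0.0251.

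Mmp8 and Mmp9 had estimates below 0. Mmp8 was at 406, 393, 299.6 and 276 CPM at P3 and at 544, 356, 360.3, 715 and 350.3 CPM at E16.5. Libraries A and B lay within the E16.5 range and C and D below it. Its log2 fold change was -0.62 ± 0.26 (edgeR, adjusted p = 0.0617), and 7 of 21 alternatives called it lower, among them DESeq2 (-0.64) and the fits without the shared library (-0.77), without homozygous replicate 2 (-0.72) and without P3 library A (-0.76). Mmp9 was at 221, 212, 267 and 237 CPM at P3 against 321, 239, 189, 372 and 159 CPM, with overlap (-0.31 ± 0.23, edgeR adjusted p = 0.284). Late cells, in which both genes are highest, made up 9.55% to 22.4% of neutrophil-like cells at P3 and 9.78% to 37.3% at E16.5, and their part in these values was not tested beyond the fits within ranges.

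Within ranges neither gene was called. A range need not hold cells of the same maturity at both stages, since whole sub-clusters were named. A late sub-cluster of 588 cells at E16.5 had a median of 0.753 for the score that ranked the cells. A middle sub-cluster of 1286 cells at P3 had a median of 0.781. The part of such differences in the fits within ranges was not tested. In early cells the log2 fold change was -0.12 ± 0.52 for Mmp8 and 0.87 ± 0.44 for Mmp9 (edgeR, adjusted p = 0.867 and 0.114), and Mmp8 was at 4.03 ± 2.92 CPM at E16.5 and 3.75 ± 2.21 at P3. In middle cells the values were 0.17 ± 0.26 and 0.41 ± 0.27 (edgeR, adjusted p = 0.601 and 0.229). In late cells the log2 fold change was 0.36 ± 0.23 for Mmp8 and 0.57 ± 0.23 for Mmp9 (edgeR, adjusted p = 0.203 and 0.0508). Mmp9 was called higher in late cells in 7 alternatives, among them DESeq2 (0.51) and the fits without Jag1+/+ replicate 1 (0.69), without homozygous replicate 1 at E16.5 (0.63) and without P3 library B (0.70).

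Ltf, Ngp and Lcn2 were called higher at P3 in each range. In early cells Ltf was at 584, 282, 442 and 505 CPM at P3 and at 89.6, 54.5, 111, 86.2 and 84.3 CPM at E16.5, without overlap. The log2 fold change was 2.19 ± 0.25 in early, 1.24 ± 0.18 in middle and 1.67 ± 0.28 in late cells (edgeR, adjusted p = 8.76e-06, 9.98e-05 and 8.02e-05). For Ngp the 3 values were 1.81 ± 0.28, 1.24 ± 0.19 and 1.77 ± 0.27, and for Lcn2 1.41 ± 0.26, 1.00 ± 0.19 and 1.49 ± 0.25. Whether the ranges differ from each other in these values was not tested, nor was the part of differences in maturity between the stages within a range.

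Elane was also called in each range, with 0.85 ± 0.17 in early, 1.10 ± 0.19 in middle and 1.31 ± 0.32 in late cells. Its levels in late cells were 11.2 ± 6.36 CPM at E16.5 and 23.2 ± 7.97 at P3, beside 10.2 and 21.9 CPM in B-like cells, so the late levels were close to those of B-like cells. The same holds for Mpo, called in early (0.54 ± 0.15) and late cells (1.02 ± 0.32), where its late levels were 17.4 ± 11.6 and 30.9 ± 3.00 CPM and those in B-like cells 21.5 ± 14.4 and 27.7 ± 6.15. Mpo lost its call in late cells in 2 of 19 alternatives, without P3 library A (0.88, edgeR adjusted p = 0.0564) and with doublets kept (0.61, edgeR adjusted p = 0.240). Camp was called in late cells (0.83 ± 0.26, edgeR adjusted p = 0.0145). Prtn3, which was called over all neutrophil-like cells, was not called in any range. In all, 5 members were called higher in early cells, where 23.1% of genes were called higher and 23.5% lower (46.7% in either direction). In middle cells 4 members were called higher, where 25.1% of genes were higher and 24.2% lower (49.3%). In late cells 6 were called higher, where 23.2% were higher and 26.7% lower (49.9%). No member was called lower in any range, and over the 3 ranges 48.5% of pairs were called, 23.9% higher and 24.6% lower. Median log2 fold changes of the members were 0.70, 0.41 and 0.92, and those of all genes 0.01, 0.03 and 0.01.

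**Figure D5:**
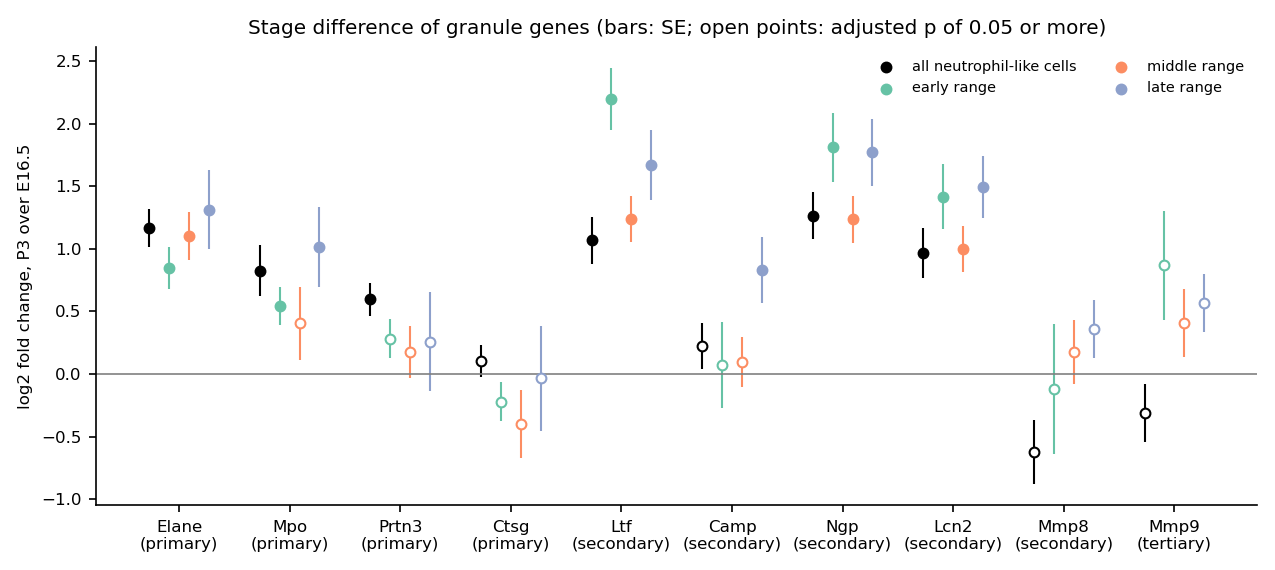
Stage difference of the 10 granule genes as log2 fold change (P3 over E16.5) with its standard error, in all neutrophil-like cells and in the 3 ranges; open points have an adjusted p of 0.05 or more. Elane, Ltf, Ngp and Lcn2 are filled in all 4 fits, while Mmp8 and Mmp9 are open in all 4 and change sign between all cells and late cells.

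In monocyte-like cells, 9 of 10 members were called higher at P3 as fitted, where 25.6% of 10550 genes were higher and 25.8% lower (51.4% in either direction). Elane was at 256, 211, 173, 210.3 and 129 CPM at E16.5 and at 1273, 603, 1413 and 828 CPM at P3, without overlap (log2 fold change 2.26 ± 0.25, edgeR adjusted p = 1.22e-05). Lcn2 was at 35.8, 31.9, 49.99, 26.5 and 29.2 CPM at E16.5 and at 419, 393, 238 and 125 CPM at P3 (2.95 ± 0.33, edgeR adjusted p = 1.34e-05). Prtn3 (1.68 ± 0.17), Ctsg (1.53 ± 0.23) and Mpo (1.31 ± 0.32) were also higher, and Mpo missed the threshold at Leiden resolution 2 (0.85). Camp (0.86, edgeR adjusted p = 0.0479) missed it in 10 of 21 alternatives, with adjusted p up to 0.248 without P3 library A (0.44). The levels of Ngp in these cells were close to those of B-like cells: Ngp was at 33.4 ± 16.05 and 148 ± 42.5 CPM, against 37.3 and 165.2 CPM in B-like cells. Per UMI of Ngp at P3 there were 0.204 UMIs of Ltf and 0.763 of Camp, against 0.218 and 0.660 in B-like cells. At E16.5 they were 0.358 and 1.71, against 0.251 and 1.94. The call of Mmp9 rested on 1, 9, 8, 3 and 3 UMIs at E16.5 and on 27, 21, 10 and 4 at P3. Median depths per library were 5481 to 9737 UMIs in monocyte-like and 1717 to 4271 in B-like cells at P3. The part of free RNA in the calls of Ngp, Ltf, Camp and Mmp9 was not tested. With doublets kept, Ngp reached 5.34, Ltf 4.39 and Camp 4.04 in the monocyte-like class.

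The calls of later genes were not limited to myeloid cells, and they included B-like cells, which are used above as background. Per UMI of Ngp at P3, B-like cells had 0.218 UMIs of Ltf, 0.542 of Lcn2 and 0.660 of Camp. Erythroid-like cells had 0.219, 0.558 and 0.641, and neutrophil-like cells 0.177, 0.391 and 0.637. The part of free RNA in the calls outside myeloid cells was not tested. Ltf, Ngp and Lcn2 were called higher at P3 in B-like, endothelial-like, erythroid-like, hepatocyte-like and macrophage-like cells, for example Lcn2 in B-like cells at 18.3 ± 8.22 CPM at E16.5 and 89.6 ± 20.3 at P3 (1.94 ± 0.32, edgeR adjusted p = 3.20e-04). Calls in either direction were common there too, for 6090 of 11385 genes in B-like, 3397 of 10013 in endothelial-like, 6227 of 11949 in erythroid-like, 5134 of 10518 in hepatocyte-like and 6023 of 10746 in macrophage-like cells, and over all classes 24.6% of pairs were called higher and 24.8% lower (49.4% in either direction). Of the primary members, 1 was called lower in each of endothelial-like (Prtn3, -1.30), erythroid-like (Ctsg, -1.26) and macrophage-like cells (Ctsg, -1.80). In megakaryocyte-like cells, 7 of 8 members tested were called higher (of 9427 genes 24.5% were higher and 22.7% lower, 47.2% in either direction), among them Mpo at 18.5 ± 22.2 and 2103 ± 268 CPM and Ctsg at 3.34 ± 2.81 and 640.5 ± 30.7 CPM. The basophil gene Prss34 and the progenitor gene Cd34, given above for that cluster at P3, were at 0.09 ± 0.21 and 8.0 ± 3.28 CPM at E16.5. Their part in the result was not tested.

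Regulators and further granule genes were counted from lists chosen by function, and the counts stand beside 25.5% of all genes called higher and 25% lower in the same cells (50.5% in either direction). Of 14 genes of granule gene regulation, 2 rose in neutrophil-like cells at P3, namely Spi1, which encodes PU.1 (170.0 ± 24.4 to 561 ± 51.9 CPM, log2 fold change 1.52), and Cebpe, which drives secondary granule genes (292 ± 38.4 to 844 ± 120 CPM, 1.33). In the same list 3 fell, namely Bcl6 (-0.71), Cebpb (303 ± 65.99 to 94.95 ± 52.7 CPM, -1.84) and Klf4, which was low throughout (2.78 ± 0.741 to 1.20 ± 0.502 CPM, -1.32), 9 were not called, and the median was -0.14. Of 14 other primary granule genes tested, 6 rose and 3 fell, with a median of 0.33. Prss57, which encodes another serine protease of primary granules (1.18), and the lysosomal mannosidase gene Man2b1 (1.03) rose, and Ctsc, the protease that activates the granule serine proteases (-1.19), and Manba (-1.18) fell. Of 19 other secondary and tertiary genes tested, 10 rose and 5 fell, with a median of 0.43. Mmp25, the membrane-bound leukolysin (4.46 ± 1.33 to 41.4 ± 10.5 CPM, 3.02), and Chil3 (1.72) rose, while Olfm4, the olfactomedin of a subset of specific granules (2018 ± 405 to 769 ± 128 CPM, -1.57), and Adam8 (-1.11) fell. Cebpe, Prss57 and Chil3 also stood in the lists used to name neutrophil-like cells. By genotype, 0 genes of the 3 lists were called in neutrophil-like cells.

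At P3 only 1 library, C, was taken as homozygous and 1, D, as heterozygous, so their values are given without a test. The label of C is not beyond doubt. Of the 35072 barcodes of its deposited matrix, 19927 were shared with A, and these were removed, and 18130 with the second homozygous matrix. The 10 members made up 9.32% of the UMIs of neutrophil-like cells in library C (95% exact Poisson interval 9.31% to 9.34%) and 8.17% in library D (8.15% to 8.19%), beside 7.79% in A and 7.56% in B. The intervals cover counting error only. Ltf in C was 1.37 times its level in D, Elane 1.31 times, Lcn2 1.25 times and Ngp 1.21 times, while Ctsg was at 0.788 times and Camp at 0.966 times. There is no replicate check on these ratios. The depth of the deposited barcodes also differed, with 0 below 1000 UMIs in C and 2822 in D. With at least 2000 UMIs per cell the levels in C stayed the same, while those in D moved. The ratio then went from 1.37 to 1.43 for Ltf, from 1.31 to 1.26 for Elane, from 1.08 to 1.51 for Mmp8 and from 1.13 to 1.41 for Mmp9. Libraries A and B, whose genotype is unclear, were both above D for Lcn2 and on either side of it for Ctsg.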

How the data were processed

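Single cells of whole mouse livers were counted with 10x Genomics chemistry. The authors deposited counts of UMIs per gene and barcode, 1 matrix per sample, without normalization. Per the submitters' processing notes, Cell Ranger 2.1.1, R 4.1.2, Seurat and the build mm10 were used, while the file headers give Cell Ranger 3.0.2 at P3 and 3.1.0 at E16.5. The series names 2 individuals per genotype and stage, and matrices sharing over 20% of barcodes were reduced to 9 libraries, with 75745209 to 258642858 UMIs each.

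Barcodes were kept from 1000 UMIs upwards and up to a mitochondrial share of 15%, the top 10% of Scrublet scores in each library were removed, and so were clusters with over 40% doublets. Cells were clustered per stage with scanpy 1.11.5 (2000 variable genes, 30 components, 15 neighbours, Leiden resolution 1), without the 10 granule genes, and named from marker lists by their 10 leading genes. UMIs were summed per library and class with at least 20 cells and tested with edgeR 4.0.16 (quasi-likelihood, TMM), with Benjamini-Hochberg adjustment over all pairs of class and gene, or of range and gene, and a threshold of 0.05. DESeq2 1.42.0, other scalings, filters, doublet rules, a replicate block and leaving out each library were alternatives. Intervals are exact Poisson at 95% and cover counting error only. Because samples are not stated to be separate litters or days, p-values measure the spread between these libraries.

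Besides the 10 genes, those named were the 5 genes most alike each set over 10 bins, on log2(CPM + 10) and among genes with at least 50 CPM in 1 bin, and up to 4 called genes of each list with the largest change. Bcl6, Prss34 and Cd34 were named after their values were seen. The members and lists were chosen with earlier results of these data known.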

Additional observations from a re-analysis of the deposited data

Results flagged for a closer look

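Of 120 groups of values from 4 or 5 libraries, 7 held a library far from the others, where chance flags about 1 in 20. All were at P3. In library D, 3 primary genes had later positions. Elane was at 11.78% against 9.758% to 10.0% in the others, Prtn3 at 12.09% against 9.971% to 10.19%, and Ctsg at 8.589% against 7.378% to 7.469%. A position counts the ranked cells of its own library. Early cells made up 25.6% of the neutrophil-like cells of D, against 18.1% to 22.7% in the other P3 libraries. Their part in these positions was not tested. In the same library Mpo was at 60.36 CPM in middle cells, against 33.48 to 37.17 CPM. In library C, Ctsg in neutrophil-like cells was at 649.8 CPM against 806.5 to 834.3 CPM, and Lcn2 in middle cells at 21120 CPM against 18560 to 18940 CPM. In library A, Ctsg in late cells was at 9.733 CPM against 6.082 to 6.537 CPM, all near the level of B-like cells.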

How the results depend on the processing

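The order of the mean positions of the primary, secondary and tertiary sets held in 100% of libraries under every setting run. Member calls by stage numbered 6 to 7 in neutrophil-like cells and 14 to 17 over the ranges (15 as reported), and calls by genotype 0 throughout. Over all genes in neutrophil-like cells, genotype calls numbered 42 without a filter on low counts and 0 to 6 with a library left out, against 0 as reported. The replicate numbers were not shown to pair the samples (correlations of deviations 0.428, 0.007 and 0.333), and a replicate block gave 0, 6, 0 and 15 member calls, the same counts. With doublets kept, the granule share at P3 was 7.74% in library C and 6.89% in D, and with at least 2000 UMIs 8.135% in D; the cause was not tested. Signs changed for genes that were not called. By genotype, Elane was at -0.001 with plain library size and -0.041 without sub-clusters of no range, Ctsg at -0.034 without them, Prtn3 at 0.016 with the replicate block, and Ngp at -0.017 with doublets kept. By stage, Ctsg was at -0.164 with doublets kept and -0.076 without those sub-clusters. Leaving out a library at E16.5, genotype values ran from -0.064 to 0.19 for Elane, -0.12 to 0.10 for Prtn3, -0.013 to 0.186 for Ctsg, -0.14 to 0.42 for Ltf, -0.027 to 0.383 for Camp, -0.20 to 0.29 for Ngp, -0.13 to 0.41 for Lcn2, -0.29 to 0.87 for Mmp8 and -0.66 to 0.70 for Mmp9. With 2 libraries against 3, small genotype differences were not detectable, and a 2-fold difference could be missed. In a check on neutrophil-like cells, 41 of 100 genes changed 2-fold and 93 of 100 genes changed 4-fold were recovered, with 8 false calls in each case.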
